A study of Mus musculus with 9 samples.

Results

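The genes described here encode proteins that copy the genome in S phase: factors that license replication origins, the MCM helicase and its activators, primase and the replicative polymerases, the sliding clamp and its loader, enzymes that supply deoxynucleotides, and factors that rebuild chromatin behind the fork. They were chosen by name and function, with earlier results of these data known. Of the 44 listed genes 42 are among the 14670 genes of the table analysed. The remaining genes, *Cdt1* and *Gins2*, were not analysed here.

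An origin is licensed in G1, when the origin recognition complex, Cdc6 and Cdt1 load the MCM helicase onto DNA. At the start of S phase Cdc45 and the GINS complex join the helicase, primase and the polymerases copy the unwound strands, and the clamp PCNA holds the polymerases and ligation enzymes on the template. In the embryonic cortex the dividing cells are mainly radial glia lining the ventricle and intermediate progenitors next to them, whereas neurons of the cortical plate have left the cell cycle.

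RNA of microdissected cerebral cortex from mouse embryos at E16.5 was sequenced in 9 libraries, 3 of each genotype: controls labelled +/+, *Fzd3* -/- mutants and *Celsr3* -/- mutants. *Fzd3* encodes a Frizzled receptor and *Celsr3* an atypical cadherin of the same polarity pathway, and the comparison asks how cortical transcripts differ when either is missing. According to the methods the mutants had a mixed background of C57Bl/6 and CD1, and littermate controls could be wild type or heterozygous, which is a wider definition than the label. Control and *Fzd3* mutant libraries carry the numbers 1, 2 and 3 and *Celsr3* mutant libraries 1, 2 and 4. The methods count 3 cortical tissues per genotype, but no label ties a library to an embryo of its own, so p values measure the spread between these libraries, which may be technical. That spread was larger than counting error alone, with a chi-square per gene between 7.55 and 29.2 for pairs of libraries of a genotype.

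Values are CPM, the reads of a gene scaled by a size set for its library. Between 39857305 and 69600589 reads lay on the listed genes in a library. The CPM of all listed genes summed to between 990141 and 1012199 per library. The highest sums are above what scaling to read totals alone allows, so a further factor was applied, which is not known here. At least 70 reads lay behind each value of a replication gene, so none was near the limit of detection. Differences are on the log2(CPM + 0.5) scale and come from limma, fitted on all genes and libraries together, with Benjamini-Hochberg adjustment over 14670 genes and a threshold of 0.05. Both mutants were compared with the same controls.

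*Celsr3* transcript was at 196, 243 and 214 CPM in control libraries and at 122, 139 and 118 CPM in *Celsr3* mutants, a fall that passed the threshold (log2 difference -0.78, limma adjusted P = 0.0018). *Fzd3* transcript was at 58.0, 67.7 and 46.9 CPM in controls and at 46.5, 39.8 and 59.6 CPM in *Fzd3* mutants. These groups overlapped and the difference did not pass (log2 difference -0.24, limma adjusted P = 0.24). The paper describes exon 3 as deleted in its *Fzd3* mutant allele, where it checks the conditional mutant. A value for the whole gene does not check that exon.

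Markers of cortical projection neurons summed to between 6865 and 7355 CPM per library over 11 of 12 listed genes, with *Dcx* the most abundant, and none of the 6 listed choroid plexus markers was among the genes analysed here. Library 4 of the *Celsr3* mutants stood apart in meningeal genes: 6 of 8 listed markers, which include the collagen genes *Col3a1*, the most abundant, and *Col1a2*, summed to 179 CPM there, against 16.5 and 16.4 CPM in the other *Celsr3* mutants. The same sum was 12.9, 16.6 and 11.1 CPM in controls and 23.2, 22.1 and 16.8 CPM in *Fzd3* mutants. *Lum* and *Aldh1a2* of that list were not analysed here. The median and the number of calls of the replication genes in *Celsr3* mutants are therefore also given without that library. Other lists are given with it, apart from the calls of some genes.

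Replication genes were lower in *Fzd3* mutant cortex. Of the 42 genes, 35 fell past the threshold, which is 83.3% of them, against 14.8% of all genes (2167 of 14670) that were lower in the same comparison. None rose, against 15% of all genes (2199), and at an unadjusted p under 0.05 limma had 37 of the 42, with the signs of 40 negative. The median log2 difference was -0.46 over the replication genes and -0.00056 over all genes. Individual differences ran from -0.98 for *Cdc6* to 0.03 for *Rfc5*.

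The fall was present in each *Fzd3* mutant library. Measured from the control mean, the median over the 42 genes was -0.50, -0.45 and -0.35 in *Fzd3* mutant libraries 1, 2 and 3, against 0.01, 0.04 and -0.06 in the controls. Library 1 was below every control for 39 genes, library 2 for 38 and library 3 for 37. All *Fzd3* mutant values lay below all control values for 36 genes, whereas 22.2% of all genes (3253) showed that separation. Summed CPM of the 42 genes was 1895, 1927 and 1808 in controls and 1329, 1373 and 1439 in *Fzd3* mutants, which is 73.5% of the control mean. Among the mutants library 3 had the highest value for 30 of the 42 genes and library 1 the lowest for 24. In bulk tissue, fewer dividing cells and less of these transcripts in each dividing cell cannot be told apart.

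*Celsr3* mutant cortex gave no such call. None of the 42 genes passed in either direction with limma (smallest adjusted P = 0.599), where 0.307% of all genes (45) passed, and 7 genes were lower at an unadjusted p under 0.05, which is 16.7% of them, against 2.59% of all genes (380). The median log2 difference was -0.05 and individual differences ran from -0.23 to 0.10. Summed CPM was 1726, 1797 and 1859, which is 95.6% of the control mean. Without library 4 the median was -0.08 and the number of genes past the threshold was still 0.

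**Figure D1:**
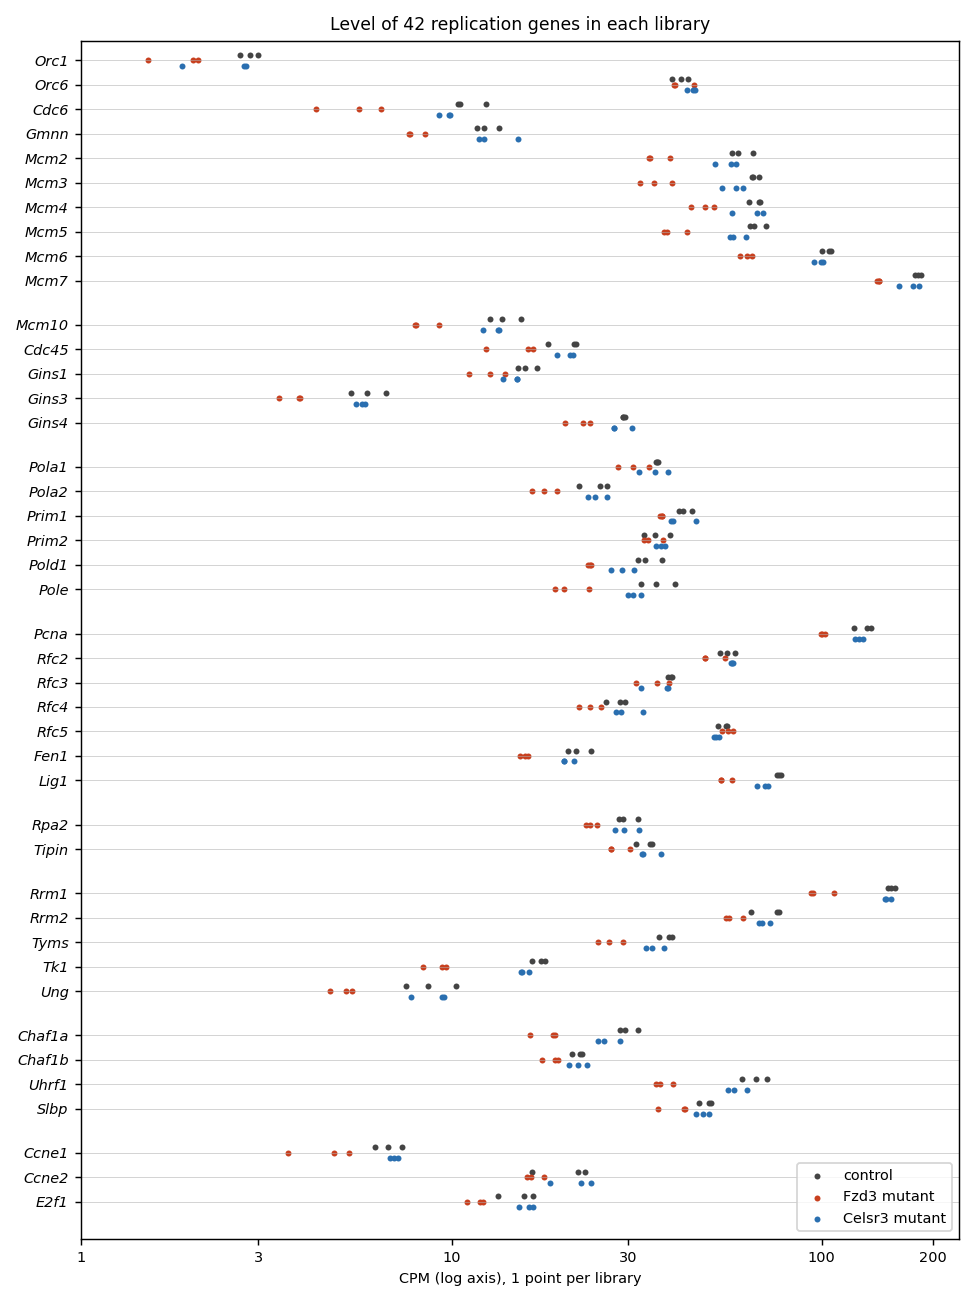
CPM of each replication gene on a log axis, with 1 point per library and genotypes in colour, grouped by role from origin licensing at the top to G1/S regulators at the bottom. *Fzd3* mutant points lie left of all control points for 36 of 42 genes, while *Celsr3* mutant points lie among or close to the controls.

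**Figure D2:**
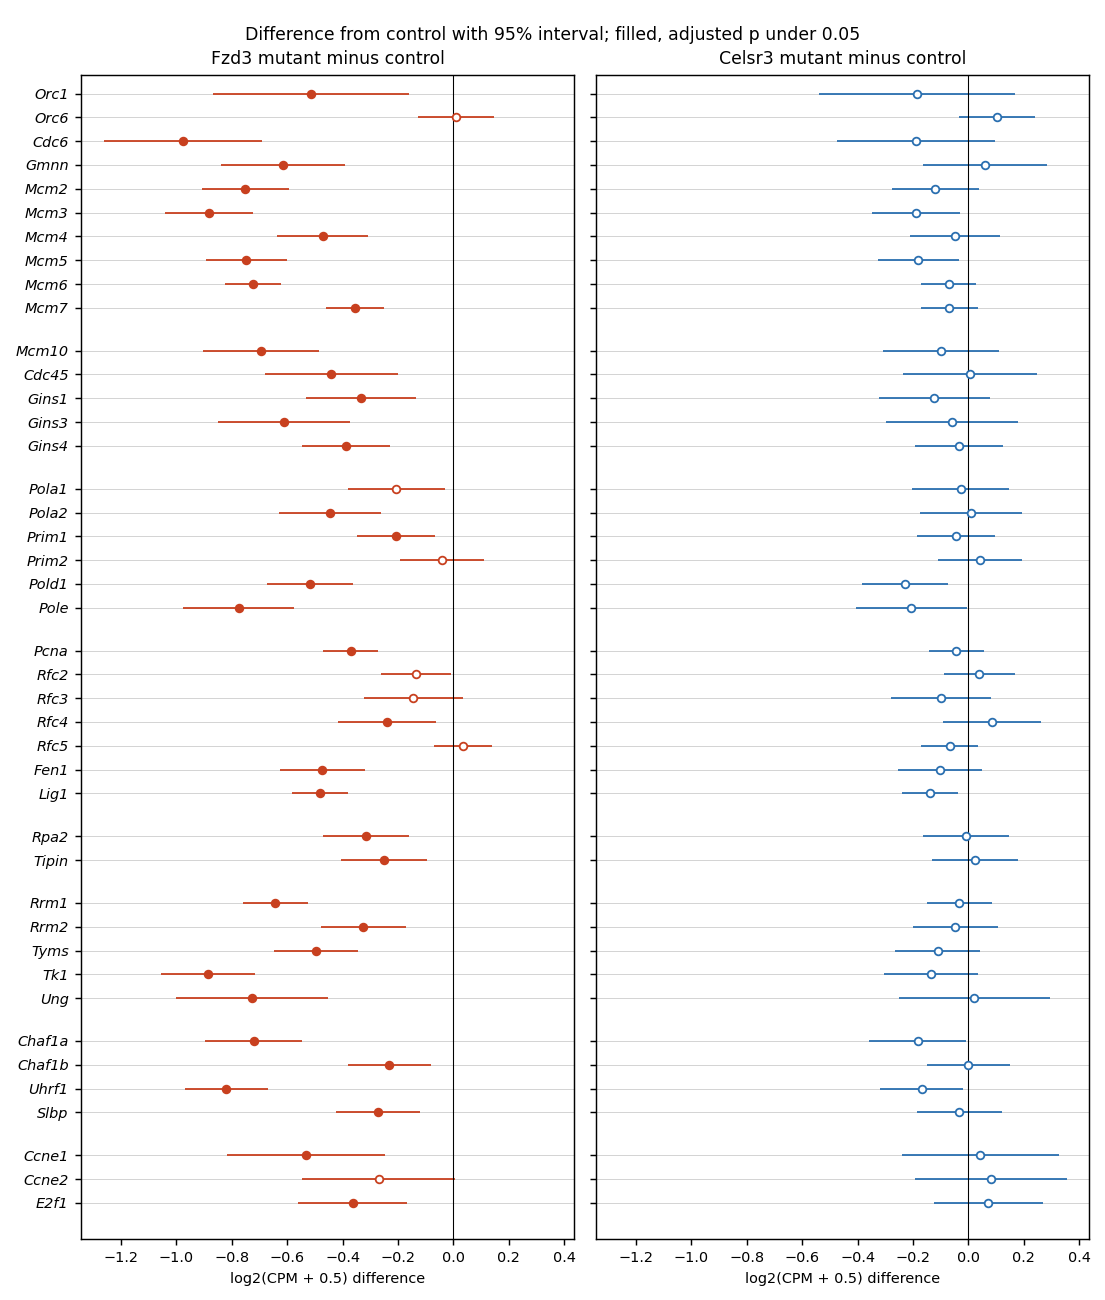
Log2 difference of each replication gene from control in *Fzd3* mutants (left) and *Celsr3* mutants (right), with 95% intervals and filled points for an adjusted p under 0.05. On the left 35 points are filled and all lie below 0, and on the right none is filled.

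Since these genes moved together, their promoters were read for motifs known from cell cycle genes. RefSeq promoter windows of GRCm38.p6, reaching from 250 bases before to 50 bases after a start, were present for 33 of the 42 genes. They were searched on both strands for the E2F words TTTCCCGC, TTTCGCGC, TTTGCCGC and TTTGGCGC, for the CCAAT box CCAAT and for the cell cycle homology element (CHR) TTTGAA, which can overlap one another. A gene with several windows was counted if any of them had a match. An E2F word occurred in 12 of the 33 genes (36.4%), against 704 of 27025 genes with a window (2.6%) and 2.26% of all 32851 windows. The CCAAT box occurred in 20 (60.6%), against 41.1% of all genes and 37.4% of all windows, and the cell cycle homology element in 4 (12.1%), against 20.2% of all genes and 17.9% of all windows.

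The stretch of 200 bases before the start is shown for genes that bear on the finding. *Mcm5*, *Mcm6* and *Uhrf1*, the last a factor that binds hemimethylated DNA at the fork, have E2F words and fell in *Fzd3* mutants. *Rrm1*, the large subunit of ribonucleotide reductase, also fell and has no E2F word in its window, and *Pola1*, the catalytic subunit of polymerase alpha, has an E2F word and did not pass. Capitals mark E2F words and CCAAT boxes on either strand, so that ATTGG is a CCAAT box on the opposite strand. Positions are chr8:75109309-75109508 on the plus strand for *Mcm5*, chr1:128359706-128359905 on the minus strand for *Mcm6*, chr17:56304113-56304312 on the plus strand for *Uhrf1*, chr7:102441495-102441694 on the plus strand for *Rrm1* and chrX:93632156-93632355 on the minus strand for *Pola1*, and none of these stretches holds an annotated exon base.
Mcm5: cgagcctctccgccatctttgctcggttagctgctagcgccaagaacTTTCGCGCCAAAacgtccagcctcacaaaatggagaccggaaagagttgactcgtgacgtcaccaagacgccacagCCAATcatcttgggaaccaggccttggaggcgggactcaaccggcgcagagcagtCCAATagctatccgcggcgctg
Mcm6: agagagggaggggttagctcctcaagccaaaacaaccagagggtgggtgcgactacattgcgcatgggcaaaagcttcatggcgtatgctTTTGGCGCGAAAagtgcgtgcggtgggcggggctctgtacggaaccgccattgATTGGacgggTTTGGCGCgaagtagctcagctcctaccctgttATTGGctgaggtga
Uhrf1: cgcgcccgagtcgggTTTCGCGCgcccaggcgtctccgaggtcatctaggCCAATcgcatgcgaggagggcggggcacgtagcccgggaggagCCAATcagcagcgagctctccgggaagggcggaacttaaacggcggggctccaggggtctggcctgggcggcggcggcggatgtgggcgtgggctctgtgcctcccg
Rrm1: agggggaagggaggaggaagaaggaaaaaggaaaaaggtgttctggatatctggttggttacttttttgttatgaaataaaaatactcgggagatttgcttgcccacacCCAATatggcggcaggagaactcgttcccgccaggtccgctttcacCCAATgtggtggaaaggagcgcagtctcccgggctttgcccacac
Pola1: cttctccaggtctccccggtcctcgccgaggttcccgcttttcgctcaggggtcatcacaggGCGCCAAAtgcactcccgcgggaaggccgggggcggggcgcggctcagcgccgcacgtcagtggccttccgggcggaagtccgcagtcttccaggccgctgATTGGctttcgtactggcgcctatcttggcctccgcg

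In *Mcm5* overlapping E2F words on opposite strands begin 153 and 149 bases before the start, and in *Mcm6* such a pair begins 110 and 106 bases before it, with a further word at 47. The word of *Pola1* begins 138 bases before its start. *Uhrf1* has 2 windows, and the stretch shown is the downstream one, with a word 185 bases before that start, whereas the window at the upstream start has a CCAAT box and no E2F word. A match describes these letters and is not a site shown to be bound. Of the 12 genes with an E2F word 10 fell in *Fzd3* mutants, with a median log2 difference of -0.56, and of the 21 genes without one 19 fell, with a median of -0.44. The genes with a word that did not pass were *Pola1* and *Rfc3*.

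**Figure D3:**
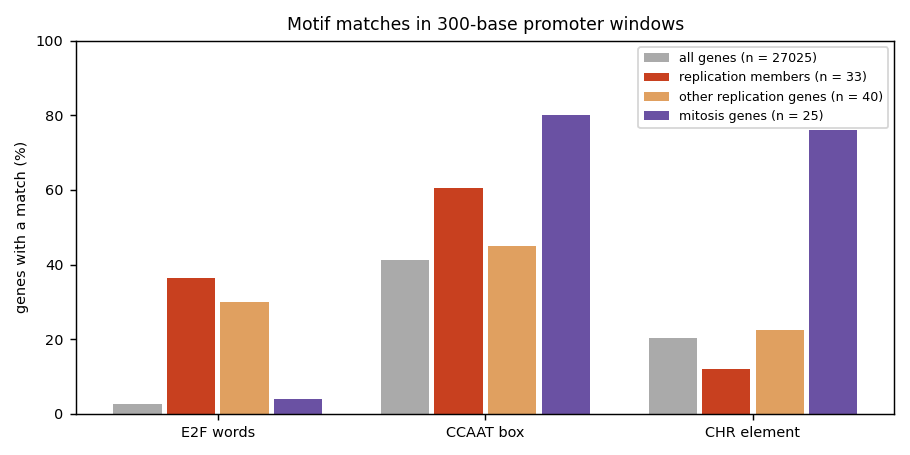
Percentage of genes with at least 1 match to each motif in RefSeq promoter windows, for all genes, the replication genes, a list of other replication genes and a list of mitosis genes. E2F words occur in 36.4% of the replication genes and 4% of the mitosis genes, whereas the cell cycle homology element occurs in 12.1% and 76%.

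Of 10 origin licensing genes analysed 9 were lower in *Fzd3* mutants, with a median log2 difference of -0.67. *Cdc6*, which loads the helicase together with Cdt1, was at 12.4, 10.6 and 10.4 CPM in controls, 4.30, 5.64 and 6.43 CPM in *Fzd3* mutants and 9.27, 9.92 and 9.82 CPM in *Celsr3* mutants. All *Fzd3* mutant values were below all others, and the mean was 50.9% lower than in controls (log2 difference -0.98, standard error 0.13, limma adjusted P = 0.000354). In *Celsr3* mutants *Cdc6* also lay below every control, with a log2 difference of -0.19 that did not pass.

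*Mcm7*, a subunit of the MCM ring, was at 185, 182 and 178 CPM in controls, 141, 143 and 142 CPM in *Fzd3* mutants and 161, 176 and 183 CPM in *Celsr3* mutants. The *Fzd3* mutant values were close together and well below the rest, whereas *Celsr3* mutants overlapped the controls (log2 difference -0.36, limma adjusted P = 0.000345, and -0.07 in *Celsr3* mutants, without a call). *Mcm6*, another ring subunit, whose promoter is shown above, was at 106, 105 and 99.8 CPM in controls, 62.7, 64.7 and 60.1 CPM in *Fzd3* mutants and 99.8, 95.2 and 101 CPM in *Celsr3* mutants. All *Fzd3* mutant values were far below the others, and *Celsr3* mutants overlapped the controls. *Mcm6* had the smallest adjusted p of the 42 genes in *Fzd3* mutants (log2 difference -0.72, standard error 0.05, limma adjusted P = 1.94e-06).

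*Mcm3* fell from 64.9, 67.8 and 65.1 CPM in controls to 32.3, 35.1 and 39.4 CPM in *Fzd3* mutants, and *Celsr3* mutants held 53.8, 58.7 and 61.2 CPM, each below every control. The log2 differences were -0.88 in *Fzd3* mutants, past the threshold, and -0.19 in *Celsr3* mutants, which did not pass. Of the other ring subunits *Mcm2* and *Mcm5* each fell by 0.75 and *Mcm4* fell by 0.47 on the log2 scale. *Gmnn*, which encodes the Cdt1 inhibitor geminin, fell by 0.61. *Orc1*, an ATPase of the origin recognition complex, fell by 0.51 (limma adjusted P = 0.0334), from 3.01, 2.68 and 2.86 CPM to 2, 1.51 and 2.06 CPM. This call depended on the library set: the adjusted P was 0.0593 or 0.124 without *Fzd3* mutant library 1 or 2, and 0.0953, 0.0607 or 0.0663 without control library 1, 2 or 3.

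*Orc6*, the smallest subunit of the origin recognition complex, was the only licensing gene analysed that did not pass. It was at 43.4, 41.7 and 39.3 CPM in controls, 40.2, 39.8 and 45.3 CPM in *Fzd3* mutants and 45.5, 45 and 43.2 CPM in *Celsr3* mutants. The groups overlapped, and the log2 difference in *Fzd3* mutants was 0.01 (95% interval -0.13 to 0.15, limma adjusted P = 0.931).

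Subunits of the MCM ring act in equal numbers, and their transcripts were at different levels. Per kilobase of exon, the control means were 41.1 CPM for *Mcm7*, 22.2 for *Mcm6*, 18.6 for *Mcm4*, 17.6 for *Mcm3*, 16.7 for *Mcm5* and 8.70 for *Mcm2*. In *Fzd3* mutants the means per kilobase were 32.1 for *Mcm7*, 13.4 for *Mcm6*, 13.4 for *Mcm4*, 9.50 for *Mcm3*, 9.92 for *Mcm5* and 5.14 for *Mcm2*. *Mcm7* stayed the highest of the ring subunits in all genotypes and *Mcm2* the lowest. The ratio of *Mcm7* to *Mcm3* CPM, a pair chosen after their values were seen, had values of 2.85, 2.69 and 2.74 for the control libraries. It was 4.35, 4.07 and 3.61 for the *Fzd3* mutants and rounded to 3 for every library of the *Celsr3* mutants, so that neither mutant overlapped the controls.

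**Figure D4:**
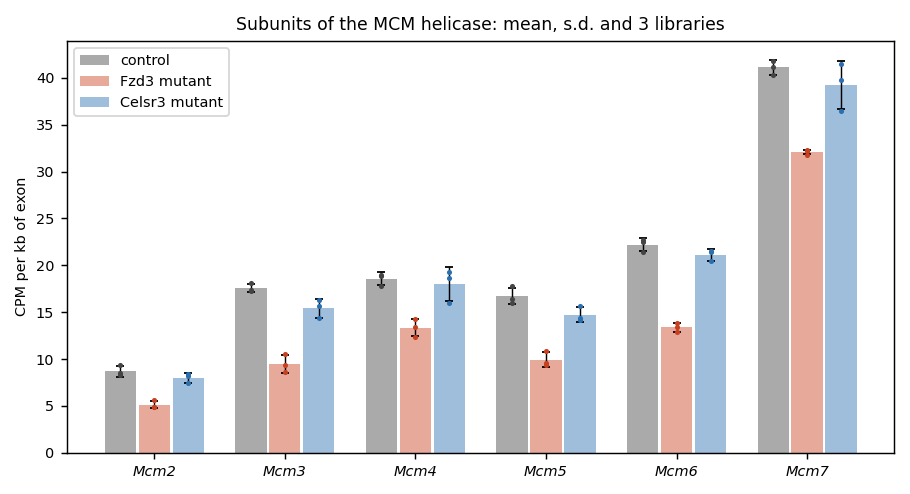
Mean CPM per kilobase of exon of the MCM ring subunits in each genotype, with bars from 0, s.d. over 3 libraries and a point per library. *Mcm7* is the highest subunit in every genotype, and all *Fzd3* mutant bars are lower than the control bars, from 32.1 against 41.1 for *Mcm7* to 5.14 against 8.70 for *Mcm2*.

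Genes for activation of the helicase were lower in 5 of 5 cases, with a median log2 difference of -0.44. *Gins4*, a GINS subunit, was at 29.4, 29.0 and 29.0 CPM in controls, 20.3, 22.7 and 23.7 CPM in *Fzd3* mutants and 30.8, 27.4 and 27.4 CPM in *Celsr3* mutants. *Cdc45*, which joins GINS on the helicase, was at 21.7, 21.4 and 18.2 CPM in controls, 12.4, 16.5 and 16.1 CPM in *Fzd3* mutants and 21.3, 19.3 and 20.9 CPM in *Celsr3* mutants. *Mcm10*, needed to start unwinding, was at 12.7, 15.4 and 13.7 CPM in controls, 8.04, 7.97 and 9.22 CPM in *Fzd3* mutants and 12.1, 13.3 and 13.4 CPM in *Celsr3* mutants. For each of these genes the *Fzd3* mutants lay below all other libraries, and *Celsr3* mutants overlapped the controls.

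*Mcm10* had the largest fall of this group (log2 difference -0.69, standard error 0.10, limma adjusted P = 0.00043), followed by the GINS subunit *Gins3* with -0.61. *Cdc45* fell by 0.44 (limma adjusted P = 0.0117) and *Gins4* by 0.39 (limma adjusted P = 0.00243). *Gins1* fell by 0.33 (limma adjusted P = 0.0177), a call that was lost without *Fzd3* mutant library 1 (0.0714) or control library 1 (0.0687).

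Of 6 polymerase and primase genes 4 were lower in *Fzd3* mutants, with a median log2 difference of -0.33. *Pole*, the catalytic subunit of the leading-strand polymerase epsilon, was at 35.7, 40.2 and 32.5 CPM in controls, 19.0, 20.2 and 23.5 CPM in *Fzd3* mutants and 30, 30.9 and 32.5 CPM in *Celsr3* mutants. Its mean was 42.1% lower in *Fzd3* mutants, with no overlap (log2 difference -0.78, standard error 0.09, limma adjusted P = 0.000163). *Pold1*, the catalytic subunit of the lagging-strand polymerase delta, fell by 0.52 and *Pola2*, the regulatory subunit of polymerase alpha, fell by 0.44.

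Of the primase genes, *Prim1*, the catalytic subunit, was at 42.2, 44.6 and 41.1 CPM in controls, 37.1, 36.6 and 36.9 CPM in *Fzd3* mutants and 39.1, 39.5 and 45.7 CPM in *Celsr3* mutants. The *Fzd3* mutants lay below all controls by a small step (log2 difference -0.21, limma adjusted P = 0.0322). That call was lost when a library was left out, with an adjusted P of 0.0754, 0.0861 or 0.0589 without *Fzd3* mutant library 1, 2 or 3 and of 0.0677 or 0.112 without control library 1 or 2. *Prim2*, the large primase subunit, was at 38.9, 35.4 and 33.0 CPM in controls, 33.1, 33.9 and 37.2 CPM in *Fzd3* mutants and 36.8, 35.7 and 37.8 CPM in *Celsr3* mutants, and these groups overlapped (log2 difference -0.04, limma adjusted P = 0.695). The 95% intervals of *Prim1* (-0.35 to -0.07) and *Prim2* (-0.19 to 0.11) overlapped, and the genes were not tested against each other.

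*Pola1*, with the E2F word shown above, was at 36.1, 35.8 and 35.6 CPM in controls and at 28.2, 30.8 and 34.2 CPM in *Fzd3* mutants. The mutant values were all lower but widely spread, and the difference did not pass (log2 difference -0.21, limma adjusted P = 0.072). Without *Fzd3* mutant library 3 it did pass, with -0.28 and an adjusted P of 0.0232.

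Clamp, clamp loader and Okazaki fragment genes fell in 4 of 7 cases, with a median log2 difference of -0.24. *Pcna*, the sliding clamp, was at 136, 132 and 122 CPM in controls, 99.4, 100 and 102 CPM in *Fzd3* mutants and 126, 123 and 129 CPM in *Celsr3* mutants. The *Fzd3* mutants lay close to each other and below every other library (log2 difference -0.37, standard error 0.05, limma adjusted P = 0.000206). *Pcna-ps2*, a pseudogene copy of *Pcna*, is among the genes analysed and fell by 0.22 (limma adjusted P = 0.0388), and counting could have split reads between the copies.

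*Lig1*, the ligase that joins Okazaki fragments, was at 75.6, 76.7 and 77.5 CPM in controls, 53.6, 53.4 and 57.3 CPM in *Fzd3* mutants and 66.7, 71.4 and 70.4 CPM in *Celsr3* mutants. Both mutants lay below all controls, with a log2 difference of -0.48 in *Fzd3* mutants (limma adjusted P = 5.08e-05) and of -0.14 in *Celsr3* mutants, which did not pass (limma adjusted P = 0.683). *Fen1*, the flap nuclease, fell by 0.47 in *Fzd3* mutants. Of its exon bases 84.2% are shared with antisense genes, *Tmem258* among them, and the use of strand in counting is not given in the sources used here.

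Of the clamp loader subunits, *Rfc4* fell by 0.24 (limma adjusted P = 0.0435) and lost its call when any of 5 libraries was left out, with an adjusted P of 0.155 or 0.0774 without *Fzd3* mutant library 1 or 3, 0.0571 without *Celsr3* mutant library 2 and 0.112 or 0.138 without control library 1 or 2. *Rfc2*, *Rfc3* and *Rfc5* did not pass, with log2 differences of -0.14, -0.14 and 0.03. *Rfc5* was at 55.5, 52.5 and 55.2 CPM in controls and 57.7, 56.0 and 53.6 CPM in *Fzd3* mutants, which overlapped. *Rfc2* passed without *Fzd3* mutant library 2 (log2 difference -0.20, limma adjusted P = 0.028).

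Of the fork proteins *Rpa2* and *Tipin*, both fell in *Fzd3* mutants. *Rpa2*, a subunit of the complex that coats single-stranded DNA, was at 31.9, 29.0 and 28.4 CPM in controls, 23.0, 24.7 and 23.6 CPM in *Fzd3* mutants and 27.6, 32.0 and 29.1 CPM in *Celsr3* mutants (log2 difference -0.32 in *Fzd3* mutants, limma adjusted P = 0.00697). *Tipin*, which steadies the fork together with Timeless, was at 31.5, 34.8 and 34.3 CPM in controls, 27.0, 27.0 and 30.3 CPM in *Fzd3* mutants and 32.7, 36.8 and 32.8 CPM in *Celsr3* mutants. In both genes the *Fzd3* mutants were below all other libraries. The fall of *Tipin* (log2 difference -0.25, limma adjusted P = 0.0208) was not past the threshold without *Fzd3* mutant library 1 (0.0773) or 2 (0.0748) or without control library 2 (0.0739) or 3 (0.053).

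Enzymes of deoxynucleotide supply and uracil removal were lower in 5 of 5 cases, with a median log2 difference of -0.64. *Rrm1* was at 157, 154 and 151 CPM in controls, 93.3, 94.9 and 108 CPM in *Fzd3* mutants and 148, 149 and 154 CPM in *Celsr3* mutants. *Rrm2*, the small reductase subunit and the one whose level follows the cell cycle, was at 75.7, 76.7 and 64.5 CPM in controls, 55.0, 56.0 and 61.3 CPM in *Fzd3* mutants and 67.7, 68.9 and 72.7 CPM in *Celsr3* mutants. The falls in *Fzd3* mutants were 36% for the *Rrm1* mean (log2 difference -0.64, limma adjusted P = 1.78e-05) and 20.5% for the *Rrm2* mean (log2 difference -0.33, limma adjusted P = 0.00538). The ratio of *Rrm2* to *Rrm1* CPM, also looked at after the values were seen, averaged 0.469 for the control libraries, against 0.583 for the *Fzd3* mutant and 0.463 for the *Celsr3* mutant libraries.

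*Tk1*, the thymidine kinase of S phase, was at 17.5, 17.9 and 16.5 CPM in controls, 9.41, 8.38 and 9.66 CPM in *Fzd3* mutants and 15.5, 15.4 and 16.2 CPM in *Celsr3* mutants. Both mutants lay below all controls, with log2 differences of -0.89 in *Fzd3* mutants (limma adjusted P = 2.44e-05) and of -0.14 in *Celsr3* mutants, which did not pass. *Ung*, the uracil glycosylase, fell by 0.73 and *Tyms*, which makes thymidylate, fell by 0.50.

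Chromatin assembly and histone mRNA genes were lower in 4 of 4 cases, with a median log2 difference of -0.50. *Uhrf1* was at 66.5, 71.2 and 61.0 CPM in controls, 36.5, 35.7 and 39.5 CPM in *Fzd3* mutants and 55.8, 57.9 and 62.7 CPM in *Celsr3* mutants. *Fzd3* mutants had 43.7% less than the control mean (log2 difference -0.82, standard error 0.07, limma adjusted P = 1.76e-05). *Slbp*, which binds the stem-loop of histone mRNA, was at 50.2, 49.7 and 46.6 CPM in controls, 36.0, 42.5 and 42.8 CPM in *Fzd3* mutants and 45.6, 47.9 and 49.6 CPM in *Celsr3* mutants (log2 difference -0.27 in *Fzd3* mutants, limma adjusted P = 0.0133). *Celsr3* mutants overlapped the controls for both genes.

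*Chaf1a* and *Chaf1b* encode subunits of the same chromatin assembly factor. *Chaf1a* fell by 0.72 in *Fzd3* mutants, and 52.5% of its exon bases are shared with the antisense gene *Ubxn6*. *Chaf1b* fell by 0.23 (limma adjusted P = 0.0248), a call that was lost without *Fzd3* mutant library 1 (0.0509) or 3 (0.0742) and without control library 1 (0.0767) or 3 (0.0569).

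Of 3 regulators of S phase entry 2 were lower, with a median log2 difference of -0.36. *E2f1*, a transcription factor of S phase genes, was at 13.4, 16.6 and 15.7 CPM in controls, 11.9, 11 and 12.1 CPM in *Fzd3* mutants and 15.2, 16.2 and 16.6 CPM in *Celsr3* mutants (log2 difference -0.36 in *Fzd3* mutants, limma adjusted P = 0.011). *Ccne1*, a cyclin of the start of S phase, was at 6.72, 7.36 and 6.22 CPM in controls, 4.81, 3.61 and 5.29 CPM in *Fzd3* mutants and 7.15, 6.80 and 6.98 CPM in *Celsr3* mutants (log2 difference -0.53 in *Fzd3* mutants, limma adjusted P = 0.0103). For both, the *Fzd3* mutants were below all other libraries. *Ccne2*, the related cyclin, was at 21.9, 23.0 and 16.5 CPM in controls, 16.4, 16.0 and 17.8 CPM in *Fzd3* mutants and 18.5, 22.4 and 23.8 CPM in *Celsr3* mutants. Control library 3 overlapped the mutants, and the log2 difference of -0.27 did not pass (limma adjusted P = 0.127), whereas without that library it was -0.41 (adjusted P = 0.0143).

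Levels of different genes were compared per kilobase of exon. In controls *Pcna* was the highest at 54.2 CPM per kilobase, followed by *Mcm7* at 41.1 and *Rrm2* at 26.1, and *Orc1* was the lowest at 0.818, so that levels spanned 66.3-fold. *Pcna*, *Mcm7* and *Rrm2* were also the highest in *Fzd3* mutants, at 41.9, 32.1 and 20.7. *Orc6* moved furthest in that order, from rank 11 in controls to rank 4 in *Fzd3* mutants, at 16.8 and 16.9 CPM per kilobase. Spread between libraries was similar for the replication genes and for all genes, with a median coefficient of variation of 5.76% and 6.46% among control libraries, of 7.27% and 6.18% among *Fzd3* mutant libraries and of 5.44% and 5.89% among *Celsr3* mutant libraries.

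By position, the replication genes lie on 16 chromosomes. The largest number on any chromosome was 8, on chromosome 5, and 5 of these fell in *Fzd3* mutants. Exons of 14 of the 42 genes share bases with another gene, and the share was over 20% only for *Fen1* and *Chaf1a*.

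In *Celsr3* mutants, the 7 genes lower at an unadjusted p under 0.05 were *Mcm3*, *Mcm5*, *Pold1*, *Pole*, *Lig1*, *Chaf1a* and *Uhrf1*, and none was higher at that level. *Pold1* had the smallest p of them, with 28.9, 26.9 and 31.1 CPM against 33.2, 37.0 and 31.9 CPM in controls (log2 difference -0.23, 95% interval -0.38 to -0.07, limma adjusted P = 0.599). All *Celsr3* mutant values were below all control values for 9 genes, *Cdc6*, *Mcm3*, *Mcm5*, *Gins1*, *Pold1*, *Rfc3*, *Lig1*, *Tk1* and *Chaf1a*, against 5.27% of all genes (773). Measured from the control mean, the median over the 42 genes was -0.13 in library 1, -0.04 in library 2 and -0.02 in library 4, and library 1 had the lowest *Celsr3* mutant value for 29 of the 42 genes. The median half-width of the 95% interval was 0.16, and the differences of *Pold1* (-0.23) and *Pole* (-0.21) in *Celsr3* mutants were as large as some falls that passed in *Fzd3* mutants, such as that of *Prim1* (-0.21).

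The mutants were also compared directly, where control libraries enter the variance of the fit and not the difference. Of the 42 genes 33 were lower in *Fzd3* than in *Celsr3* mutants, which is 78.6%, against 14.3% of all genes (2099), and none was higher with limma, against 15.3% of all genes (2247). At an unadjusted p under 0.05 there were 37, and 41 of the 42 signs were negative. The median log2 difference was -0.36, against -0.00471 over all genes, and all *Fzd3* mutant values lay below all *Celsr3* mutant values for 35 genes, against 22.6% of all genes (3314). *Cdc6* had the largest difference (-0.79, limma adjusted P = 0.00142) and *Rfc5* the only positive one (0.10, limma adjusted P = 0.128). *Orc1*, *Gins1* and *Prim1*, which fell against controls, did not pass against *Celsr3* mutants (limma adjusted P = 0.151, 0.104 and 0.08). *Orc6*, *Pola1*, *Prim2*, *Rfc3*, *Rfc5* and *Ccne2* passed in neither comparison. *Rfc2* was past the threshold here (-0.18, limma adjusted P = 0.0397), but not without *Fzd3* mutant library 1 (0.135) or 3 (0.111) or *Celsr3* mutant library 1 (0.0796), 2 (0.102) or 4 (0.085). Without *Celsr3* mutant library 4, 31 genes were lower, and leaving out each library in turn gave 27 to 34, with 27 without *Fzd3* mutant library 1.

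Other calls between the mutants also depended on the library set. *Slbp* did not pass without *Celsr3* mutant library 2 (limma adjusted P = 0.0667) or 4 (0.0849) or *Fzd3* mutant library 1 (0.0841). *Chaf1b* did not pass without *Celsr3* mutant library 1 (0.0549) or 2 (0.0997) or *Fzd3* mutant library 1 (0.0507) or 3 (0.0739). *Tipin* did not pass without *Celsr3* mutant library 2 (0.0618) or *Fzd3* mutant library 1 (0.0565) or 2 (0.0541), and *Rrm2* (0.0525) and *Rfc4* (0.0514) did not pass without *Fzd3* mutant library 1. In turn, *Orc1* passed without *Celsr3* mutant library 1 (0.0417), *Gins1* without *Fzd3* mutant library 3 (0.0407), *Pola1* without either of these (0.0474 and 0.0349) and *Ccne2* without *Celsr3* mutant library 1 (0.0239) or control library 2 (0.0462) or 3 (0.0172).

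A list of 44 other replication genes was examined in the same way, and all 44 were analysed. In *Fzd3* mutants 28 fell and 1 rose, against 14.8% and 15% of all genes, with a median log2 difference of -0.27. In *Celsr3* mutants 1 rose and none fell, with a median of -0.03 and 2 at an unadjusted p under 0.05. *Clspn*, the checkpoint mediator claspin, was at 25.8, 26.4 and 22.9 CPM in controls, 11.1, 12.4 and 15.2 CPM in *Fzd3* mutants and 22.3, 23.7 and 24 CPM in *Celsr3* mutants, with a log2 difference of -0.94 in *Fzd3* mutants. *Ticrr*, which brings factors to the licensed helicase, fell by 0.91. The most abundant genes of the list had small falls, with *Top1*, a topoisomerase, at -0.25 and *Ssrp1*, a histone chaperone subunit, at -0.20.

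Several of these genes are partners of genes above, named here because they share a complex. *Orc2* fell by 0.34 in *Fzd3* mutants, whereas *Orc3*, *Orc4* and *Orc5* did not pass, with log2 differences of -0.03, 0.18 and 0.09. *Orc4* passed without *Celsr3* mutant library 1 (limma adjusted P = 0.0429). *Dbf4*, the activating subunit of the Cdc7 kinase, fell by 0.39, and *Cdc7* did not pass at 0.09. *Rpa1* fell by 0.34 and *Timeless*, the partner of *Tipin*, fell by 0.47. *Dut*, which removes dUTP, fell by 0.40.

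*Rpa3*, the small subunit of the same complex as *Rpa1* and *Rpa2*, was higher in both mutants. It was at 23.7, 25.8 and 24.4 CPM in controls, 30.2, 31.4 and 35.4 CPM in *Fzd3* mutants and 31.9, 34.7 and 35.5 CPM in *Celsr3* mutants. Each mutant library lay above each control. The log2 difference was 0.38 in *Fzd3* mutants (limma adjusted P = 0.00259) and 0.46 in *Celsr3* mutants (limma adjusted P = 0.0193), with the same controls in both. In *Celsr3* mutants the call was lost without library 2 (0.0955) or 4 (0.102) or without control library 1 (0.102) or 3 (0.0703).

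Genes that regulate S phase transcription and guard the fork were lower as well. Of 12 genes for E2F factors, their DP partners and pocket proteins 10 fell in *Fzd3* mutants, against 14.8% of all genes. Their median log2 difference was -0.39. *E2f8* fell by 0.86 and *E2f2* by 0.74, *Tfdp1*, a DP partner, fell by 0.19, and *Rb1*, the most abundant of the list, did not pass at -0.10 (limma adjusted P = 0.161). Of 19 checkpoint and fork repair genes 12 fell, with a median of -0.40, among them *Exo1* at -0.78 and *Brca1* at -0.69. In *Celsr3* mutants none of either list passed with limma, and none was at an unadjusted p under 0.05. Directly between the mutants *E2f8*, *E2f2*, *Tfdp1*, *Exo1* and *Brca1* were lower in *Fzd3* mutants.

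Mitosis genes, expressed later in the same cycle, had a larger median fall than the replication genes. Of 30 listed genes 30 fell in *Fzd3* mutants, against 14.8% of all genes, with a median log2 difference of -0.74. Summed CPM was 1790, 1890 and 1629 in controls and 969, 1013 and 1166 in *Fzd3* mutants. *Celsr3* mutants were at 1581, 1740 and 1880 CPM, with none past the threshold in limma, 2 at an unadjusted p under 0.05 and a median of -0.03. *Cdc20*, an activator of the anaphase complex, fell by 1.04, *Bub1b*, of the spindle checkpoint, by 0.91 and *Mki67*, the proliferation antigen, by 0.81. *Top2a*, the most abundant of the list, was at 308, 320 and 262 CPM in controls and 151, 173 and 190 CPM in *Fzd3* mutants. Between the mutants 30 of 30 were lower in *Fzd3* mutants, against 14.3% of all genes. No test of the difference between the lists was made.

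Most markers of the dividing cell types were lower in *Fzd3* mutants, a comparison in which 14.8% of all genes fell. In *Celsr3* mutants none passed with limma, and the median log2 difference was -0.07 for radial glia and 0.09 for intermediate progenitor markers. Of 14 radial glia markers 10 fell in *Fzd3* mutants, and their sum was 1584, 1677 and 1592 CPM in controls, 1211, 1272 and 1171 CPM in *Fzd3* mutants and 1450, 1507 and 1590 CPM in *Celsr3* mutants. *Fabp7*, the most abundant, did not pass (log2 difference -0.18), whereas *Pax6* fell by 0.70, *Nes* by 0.67 and *Vim* by 0.62. Of 7 intermediate progenitor markers 7 fell, and their sum was 440, 474 and 395 CPM in controls, 253, 272 and 310 CPM in *Fzd3* mutants and 434, 489 and 497 CPM in *Celsr3* mutants. *Eomes*, the most abundant, fell by 0.67. Directly between the mutants, 7 of 7 intermediate progenitor markers were lower in *Fzd3* mutants, against 14.3% of all genes. Of 14 radial glia markers 9 were lower, *Pax6*, *Nes* and *Vim* among them. Another 2 were higher, a share near the 15.3% of all genes. The higher ones were *Slc1a3* (0.14, limma adjusted P = 0.0219), lost without *Fzd3* mutant library 2 (0.0806) or *Celsr3* mutant library 2 (0.0794) or 4 (0.0809), and *Hopx* (0.37, limma adjusted P = 0.0467), lost when any of 7 libraries was left out. Of the lower ones *Hes1* did not pass without *Celsr3* mutant library 4 (0.0827) or *Fzd3* mutant library 1 (0.0734) or 3 (0.0528), and *Emx2* did not without *Celsr3* mutant library 2 (0.0996) or 4 (0.0832) or *Fzd3* mutant library 1 (0.111) or 2 (0.0896). No *Fzd3* mutant sum of either list overlapped the controls, and their part in the result was not tested.

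**Figure D5:**
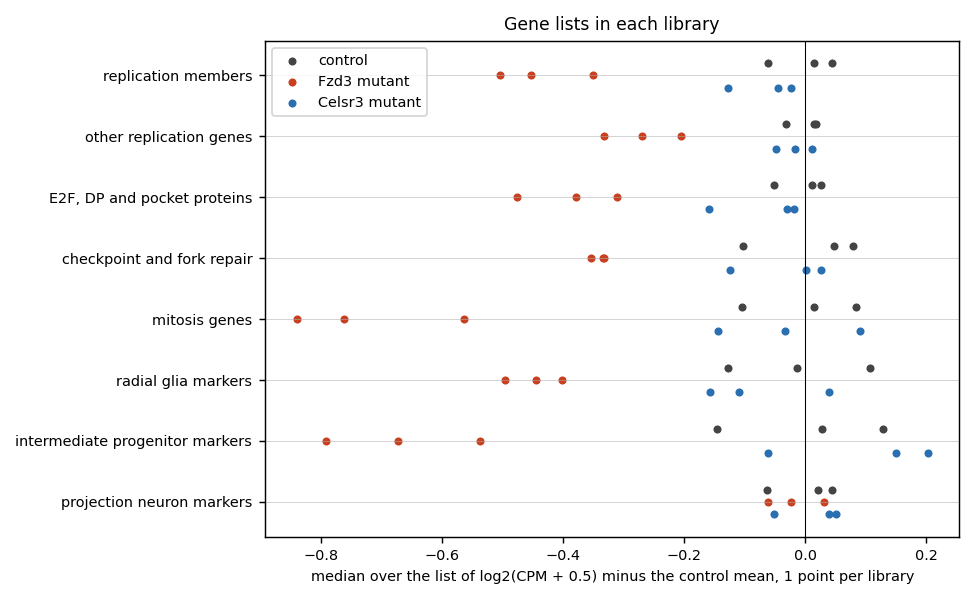
Median over each gene list of log2(CPM + 0.5) minus the control mean, with 1 point per library and the control mean at 0. All *Fzd3* mutant points of the replication genes, from -0.50 to -0.35, and of the mitosis and progenitor lists lie left of the controls, while points of the projection neuron list lie within the control range or close to it.

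Some markers of glial, vascular and immune cells were higher in *Fzd3* mutants, a comparison in which 15% of all genes rose. Of 5 oligodendrocyte precursor markers 3 rose, with sums of 29.4, 27.6 and 39.1 CPM in controls, 71.2, 62.6 and 38.0 CPM in *Fzd3* mutants and 36.9, 26.9 and 32.2 CPM in *Celsr3* mutants. *Pdgfra*, the most abundant, rose by 0.73 (limma adjusted P = 0.0399), which did not pass without *Fzd3* mutant library 1 (0.155) or 2 (0.13) or without control library 1 (0.0895) or 2 (0.142), and *Olig1* rose by 1.08. *Olig2* rose by 0.98, which did not pass without *Fzd3* mutant library 1 (0.122) or 2 (0.116) or without control library 1 (0.0973) or 2 (0.0869). Of 9 endothelial and pericyte markers 3 rose, with sums of 149, 149 and 150 CPM in controls, 206, 202 and 181 CPM in *Fzd3* mutants and 164, 143 and 203 CPM in *Celsr3* mutants, and *Kdr*, the most abundant, rose by 0.58. Of 7 microglia markers 3 rose, with sums of 33.6, 38.8 and 36.8 CPM in controls, 58.9, 55.2 and 41.0 CPM in *Fzd3* mutants and 37.4, 40.0 and 48.4 CPM in *Celsr3* mutants, and *Csf1r*, the most abundant, rose by 0.63. Of the 6 meningeal markers 1 rose, *Ogn*, by 1.46, a share near that of all genes, and *Col3a1* (-0.40) and *Col1a2* (-0.01) did not pass. Without *Celsr3* mutant library 4 in the fit *Dcn* (1.08, limma adjusted P = 0.000669) and *Col1a1* (1.67, limma adjusted P = 0.0339) passed as well.

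Directly between the mutants, *Olig1* (limma adjusted P = 0.00203) and *Olig2* (0.0079) were higher in *Fzd3* mutants. *Pdgfra* (0.103) and *Csf1r* (0.158) did not pass, and did without *Fzd3* mutant library 3 (0.0114 and 0.0213). The endothelial marker *Flt1* (0.81, limma adjusted P = 0.000825) and the microglia marker *Aif1* (0.56, limma adjusted P = 0.0231) were higher in *Fzd3* mutants, the latter not without *Fzd3* mutant library 2 (0.0953) or *Celsr3* mutant library 1 (0.0797). *Kdr* was higher as well (0.0211), but not past the threshold without *Fzd3* mutant library 1 (0.0831) or 2 (0.0767) or *Celsr3* mutant library 2 (0.0637). *Ogn* did not pass (0.665), and did without *Celsr3* mutant library 4 (0.0208). Without that library the endothelial and pericyte markers *Cldn5* (0.0291), *Tek* (0.0205) and *Kcnj8* (0.0325) and the microglia marker *C1qb* (0.0357) also passed, and the oligodendrocyte precursor marker *Cspg4* did not (0.0809, against 0.0337 with it). In the summed levels *Fzd3* mutant library 3 was the lowest of its genotype for each of these lists, and it was also the one with the smallest fall of the replication genes, and their part in the result was not tested.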

How the data were processed

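RNA of 9 cortical libraries was sequenced by a company, and the authors deposited a table of CPM values for 14670 genes that had passed a filter on low expression. The submitters' processing notes name FastQC, Bowtie, TopHat, TopHat2, Cufflinks 2.1.1 and edgeR 2.12, with the builds GRCm38 and GRCh37, in no stated order, and the annotation and the use of strand are not given in the sources used here. Each column's values were whole multiples of a step for 100% of genes, within 0.01 reads, which gave 39857305 to 69600589 reads per library. A level of 3 reads was 0.0427 to 0.0752 CPM, for counting error only.

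The members and lists were chosen with earlier results of these data known. Groups came from the sample labels. Differences were computed with limma 3.58.1 in R 4.3.3 (eBayes with a trend, two-sided) on log2(CPM + 0.5), with 9 libraries in the fit, a minimum mean of 0.5 CPM that removed 0 genes, and Benjamini-Hochberg adjustment. The offset makes small changes of genes with low values appear smaller. Tables and plots used Python 3.11.15, pandas 2.3.3 and matplotlib 3.10.9. Exon lengths are unions of GENCODE M21 exons on GRCm38, and promoter windows come from RefSeq on GRCm38.p6.

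Genes were named by rule: in each role group the 2 with the highest mean CPM and the 1 with the largest difference, from each other list the 2 most abundant and the 2 with the largest difference past the threshold, and *Fzd3* and *Celsr3*. Of rows sharing a gene name, as for *Rb1*, the one with the higher mean was used. Some genes that this rule picks are not reported here. Other names account for the remaining members, serve as partners or were added after their values were seen. On simulated reads for 14670 genes, the fit of *Fzd3* mutants against controls recovered 192 of 199 changed genes with 4 false calls. The fit of *Celsr3* mutants, simulated without a change, made 0 calls. The simulation changed far fewer genes than were called in the data, by larger steps than many calls above. It gave every gene the same spread beyond counting error, so these rates need not hold for the data. Alternatives covered the pseudocount, a filter, scaling, which libraries entered the fit, blocking by replicate, the variance trend, weights and leaving out each library.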

Additional observations from a re-analysis of the deposited data

How the results depend on the processing

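The fall of the replication genes in *Fzd3* mutants was recomputed in 18 alternative fits. The number that fell was 35 as reported and between 29 and 35 in these fits, and none rose in any of them. Of the 35 genes 29 passed in every alternative. The median log2 difference stayed between -0.50 and -0.41. In *Celsr3* mutants the number past the threshold was 0 in every fit, and the median was between -0.08 and -0.02 when a library was left out.

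The correlation of deviations from the group means lay between -0.199 and 0.192 for libraries with the same number. For libraries with different numbers it lay between -0.1625 and 0.188. These values give no sign that the numbers pair the samples, but with so few libraries per genotype they cannot exclude it. With the number as a replicate block, 29 genes of the table passed in *Celsr3* mutants instead of 45. Between the mutants 2101 differed instead of 4346, with 25 replication genes lower instead of 33. Number 4 belongs only to a *Celsr3* mutant library, so under the block the differences of *Celsr3* mutants rest on libraries 1 and 2. In *Fzd3* mutants against controls 33 replication genes were lower under the block.

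Leaving out a library gave between 2958 and 4312 genes past the threshold in *Fzd3* mutants, 39 to 53 in *Celsr3* mutants and 2971 to 4471 between the mutants. Limma voom weights from the recovered reads, chosen after seeing the data, gave 32 replication genes lower. The count models planned were not run, because the table holds too few low values to check recovered reads. The voom weights and the read numbers given above rest on the same recovered reads. With 3 libraries per genotype the median 95% interval of a replication gene reached 0.16 to either side, and differences larger than that also went uncalled, such as -0.23 for *Pold1* in *Celsr3* mutants.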

Other observations

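Clustered histone genes, most of which make mRNA without a poly(A) tail in S phase, were examined as a further list. Among the 18 analysed, 4 fell and 1 rose in *Fzd3* mutants, against 14.8% and 15% of all genes, with a median log2 difference of -0.15, and their sum was 77.6, 90.9 and 86.3 CPM in controls, 82.9, 82.3 and 81.9 CPM in *Fzd3* mutants and 84.1, 86.2 and 84.7 CPM in *Celsr3* mutants. *Hist3h2ba*, the most abundant, was at 36.0, 41.6 and 44.3 CPM in controls and 41.2, 41.7 and 38.9 CPM in *Fzd3* mutants (log2 difference 0.00). *Hist1h2al* fell by 1.14, whereas *Hist1h2bc* rose by 0.88, from 2.35, 3.40 and 2.78 CPM to 5.04, 5.57 and 6.20 CPM (limma adjusted P = 0.00148). In *Celsr3* mutants none passed with limma and 1 was at an unadjusted p under 0.05. Whether the libraries were selected for poly(A) is not given in the sources used here.

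Of 11 projection neuron genes 5 fell and 2 rose in *Fzd3* mutants, with a median of 0.02, where 14.8% of all genes fell and 15% rose. *Bcl11b*, a factor of deep-layer neurons, fell by 0.46, from 252, 266 and 230 CPM to 183, 171 and 191 CPM. *Tubb3* of that list was not analysed here. Of 10 interneuron genes none passed with limma against controls, and at an unadjusted p under 0.05 there were 0 in *Fzd3* and 3 in *Celsr3* mutants, where all 10 signs were negative. Directly between the mutants 5 of the 10 were higher in *Fzd3* mutants, against 15.3% of all genes. Among these, *Gad1*, *Gad2*, *Lhx6* and *Sp8* lost their calls without *Celsr3* mutant library 4 (0.057, 0.124, 0.165 and 0.075) or *Fzd3* mutant library 1 (0.0673, 0.0998, 0.161 and 0.0543), and each of them without further libraries. *Gsx2* and *Nkx2-1* of that list were not analysed here. Of 8 erythroid genes only the embryonic globin *Hbb-y* fell, at under 2 CPM in every library, and that call was lost without any 1 of the *Fzd3* mutant libraries or without control library 1 or 2.

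Limits apply to these results. The value of *Fzd3* does not separate *Fzd3* mutants from controls, so that label rests on the sample names. Litter and sex are not given in the sources used here. Controls are labelled +/+, while the methods also allow heterozygous littermates. CPM are relative values, and a change in abundant transcripts can move the values of others. Cell numbers were not measured in the tissue sequenced. In stained sections of both mutants the paper counted fewer Pax6-positive cells, and modestly fewer cells with the intermediate progenitor marker Tbr2. Promoter words were matched by sequence only, and windows were lacking for 9 of the 42 genes.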
